A study of Mus musculus with 27 samples.

Results

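The core pluripotency genes followed here are Pou5f1 (OCT4), Sox2, Nanog, Sall4, Lin28a, Utf1, Dppa2, Dppa4, Dppa5a and Trim71. They were taken by symbol, after the gene identifiers of the count files had been matched without version to the GENCODE M21 annotation, and all 10 were found among 51826 identifiers. The libraries came from mouse embryonic stem cells of the E14 line (wild type), from a Quaking knockout (KO) on that background (gene Qk) and from a line labelled as a Sam68 KO (gene Khdrbs1). Quaking and Sam68 are STAR proteins, a family that binds RNA, and the series asks for their role in the early embryo. Stem cells were taken at day 0, and embryoid bodies (cell aggregates that form derivatives of the germ layers) at days 3 and 10, with 3 biological replicates a group and 27 libraries in all. No treatment other than the differentiation is given in the labels, all groups share the E14 background, and each KO stands on 1 line, so clonal variation and the loss of the gene cannot be told apart.

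Pou5f1, Sox2 and Nanog encode transcription factors that bind many of the same enhancers in embryonic stem cells, activate one another's genes and hold the cells in a state from which all embryonic lineages can form. Sall4 (a zinc-finger factor), Utf1 (a chromatin-bound protein) and the paired proteins DPPA2 and DPPA4 (which bind chromatin at developmental promoters) belong to the same nuclear programme. Lin28a, Trim71 and Dppa5a encode RNA-binding proteins. LIN28A blocks the maturation of let-7 microRNAs, let-7 represses Lin28a and Trim71 messages in turn, and TRIM71 represses messages of its own targets, so these genes form a circuit that is known to switch as stem cells differentiate.

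Sall4, Lin28a and Trim71 held a let-7 seed match in the 3′ UTR of their longest annotated transcript, and the sites are shown because these members stood apart in the values that follow. The mature let-7 microRNAs listed by RefSeq (build GRCm38.p6) share 1 seed, bases 2 to 8, set in capitals in the first line. In the other lines capitals mark CTACCTC, the letters searched, on the transcript's own strand. Coordinates are on GRCm38, and all 3 genes lie on the minus strand.
let-7a: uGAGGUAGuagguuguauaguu
Sall4, chr2:168748933-168748955: taatttatCTACCTCaattatct
Lin28a, chr4:134005182-134005204: ctgttgaaCTACCTCatttttgc
Lin28a, chr4:134004544-134004566: ccacaaacCTACCTCactgtgtt
Trim71, chr9:114512465-114512487: cctaagtcCTACCTCagcttaaa
Trim71, chr9:114512369-114512391: atttctatCTACCTCaactcttt
Trim71, chr9:114509040-114509062: tggattttCTACCTCaattttgg
Trim71, chr9:114509014-114509036: aaagttgtCTACCTCacgtcggc

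Sall4 held 1 match in its 3′ UTR, Lin28a held 2 and Trim71 held 4, and the transcripts of the other 7 members held none. Sall4 held 3 more matches in its coding sequence and Trim71 held 1. Among 3′ UTRs of like length, 11.2% held the letters for Sall4 (1697 bases), 14.8% for Lin28a (2775 bases) and 29.9% for Trim71 (5512 bases). The 3′ UTRs of Pou5f1, Utf1 and Dppa5a are short, at 221, 122 and 184 bases. A match is a description of the letters, and microRNAs were not measured in these libraries.

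The core of the Quaking response element, searched as ACTAAC or ACTAAT on the transcript's strand, is shown because one of the lines is labelled as a Quaking KO. It occurred in the 3′ UTRs of Sox2, Nanog and Sall4 once each and of Trim71 at 3 places, and the other 6 members held none. Capitals mark the core.
Sox2, chr3:34652355-34652376: atatttgaACTAATaccatcct
Nanog, chr6:122714610-122714631: aataaaacACTAATtttacctt
Sall4, chr2:168749517-168749538: ctgtggtgACTAATgcgggtaa
Trim71, chr9:114510350-114510371: ttctggtgACTAACaaaatact
The core is common: 31.0% of 3′ UTRs as long as that of Sox2 held it, 30.8% for Nanog, 42.9% for Sall4 and 81.9% for Trim71.

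Nanog was the member with the largest differences between the lines at day 0, and its promoter is shown for that reason. The 250 bases before the start site that RefSeq lists (GRCm38.p6, chr6:122707239-122707488, plus strand) hold the composite OCT4-SOX2 motif in reverse orientation, marked in capitals.
Nanog promoter: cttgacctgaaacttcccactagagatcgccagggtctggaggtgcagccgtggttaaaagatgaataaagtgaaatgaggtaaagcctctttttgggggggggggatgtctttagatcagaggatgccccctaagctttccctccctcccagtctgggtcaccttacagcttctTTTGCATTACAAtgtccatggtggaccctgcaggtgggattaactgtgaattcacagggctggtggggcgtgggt
The motif was searched on both strands, and 11 of 32536 promoter windows of this length (0.034%) held it. It was not found in the listed windows of Sox2, Lin28a, Utf1, Trim71 and Pou5f1. Sall4, Dppa2, Dppa4 and Dppa5a were not in the promoter table.

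All 10 members were well covered. The libraries held 56461674 to 77257496 counts, the lowest count of a member in any library was 40 and the highest was 72065, and every member passed the filter on low counts in every comparison. Levels are given as CPM, a gene's counts scaled to the total of its library. Log2 fold changes (log2FC) come from edgeR's quasi-likelihood fit with its own scaling between libraries (TMM), so a ratio of CPM can differ from a fitted change. A gene was called where its Benjamini-Hochberg adjusted p over all genes tested was under 0.05. The mitochondrial ribosomal transcript mt-Rnr2 took 5.64 to 14.77% of a library. Qk was at 213 ± 4.56 CPM (SD, n = 3) in wild type at day 0 and at 140 ± 5.88 CPM in the Quaking KO, a log2FC of -0.58 (edgeR, adjusted p = 1.85e-09), and it was also lower at days 3 and 10, by -0.95 and -0.41. Khdrbs1 was not lost in the Sam68-labelled line: it was at 96 ± 3.56 CPM against 89.7 ± 2.29 at day 0, 103 ± 6.95 against 158 ± 8.39 at day 3 and 101 ± 1.87 against 126 ± 31.2 at day 10. Qk was not lost in the Quaking KO either, with 114 ± 3.44 CPM against 223 ± 5.35 at day 3 and 218 ± 10.4 against 293 ± 19.9 at day 10. Counts over a whole gene do not show which part of it was altered, so they do not settle the KO in either line. The line with the Sam68 label is called Sam68-labelled throughout. The numbers in its library labels form a series apart from that of the remaining libraries, so library batch and line cannot be told apart in any comparison with it.

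At day 0 the 10 genes spanned a wide range of levels per length of transcript (RPKM, over the union of annotated exons). In wild type the order ran from Dppa5a at 1114 RPKM to Pou5f1 at 394 and Nanog at 176, then Sox2 and Lin28a, both at 105, Dppa4 at 97.1, Utf1 at 82.7, Sall4 at 68.5, Trim71 at 59.3 and Dppa2 at 57.4. The libraries of Sox2 and Lin28a overlapped, as did those of Trim71 and Dppa2, and all other neighbours in the order were apart. By day 10 Lin28a led with 54.3 RPKM, ahead of Dppa5a at 28.0 and Sall4 at 23.6, whose libraries overlapped, while Utf1 and Dppa4 were near 2 RPKM and Dppa2 was at 0.775. At day 10 in the Sam68-labelled line the first places went to Lin28a at 93.3 RPKM, Sall4 at 40.6 and Trim71 at 31.0, with no overlap between these neighbours. RPKM values depend on the transcript length assumed: Pou5f1 in wild type at day 0 was at 650 RPKM by its longest annotated transcript.

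**Figure D1:**
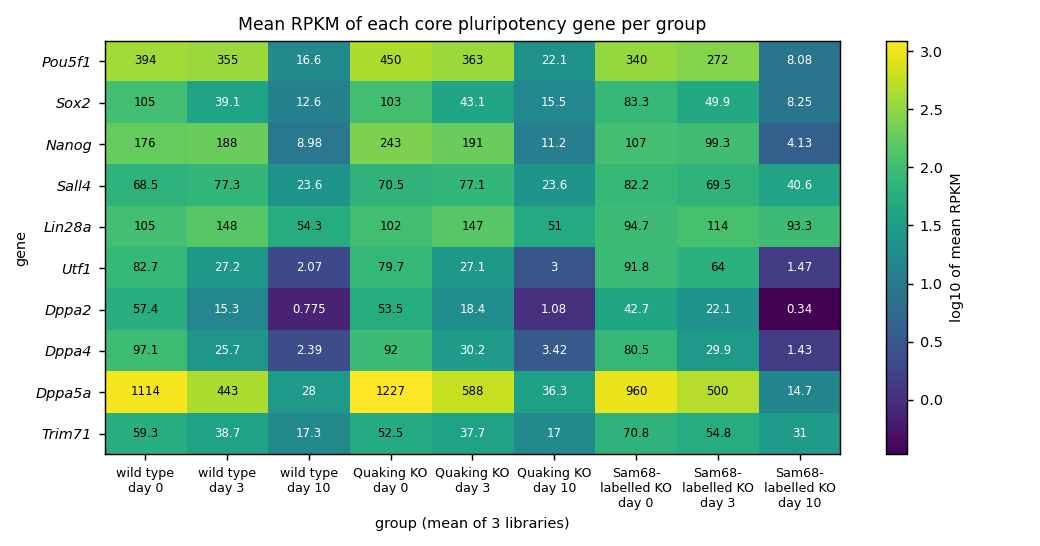
Mean RPKM (3 libraries) of each gene in the 9 groups, printed in the cells and coloured on a log10 scale. Dppa5a leads at day 0 in the 3 lines (960 to 1227 RPKM) and Lin28a leads at day 10 (51.0 to 93.3 RPKM).

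The first question was how the 10 genes moved as wild-type cells differentiated. From day 0 to day 3 Lin28a rose, 7 members fell, and Nanog and Sall4 were not called. The share of all tested genes called was 60.9%, with 30.8% higher and 30.1% lower, and the median log2FC was -1.07 over the members against 0.01 over all genes. From day 3 to day 10 all 10 members fell (76.1% of all genes were called, 39.6% higher and 36.5% lower), with a median of -3.71 against 0.02. Over the whole course, day 10 against day 0, all 10 fell as well (80.8% of all genes were called, 41.4% higher and 39.4% lower), with a median of -4.67 against 0.01. In bulk libraries fewer stem cells and less RNA per cell cannot be told apart.

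Pou5f1, the POU factor on which the pluripotent state depends, was at 848, 888 and 920 CPM in the wild-type libraries of day 0, at 743, 808 and 844 at day 3 and at 39.0, 32.0 and 41.1 at day 10. The early change was small, a log2FC of -0.25 ± 0.08 (SE; edgeR, adjusted p = 0.0196), and it did not pass when replicate 1 (adjusted p = 0.0855) or 2 (0.0514) of day 3 or replicate 3 of day 0 (0.0771) was left out. The fall came later, -4.56 ± 0.10 from day 3 to day 10. Nanog, a homeodomain factor, held its level at first: 378, 408 and 399 CPM at day 0 and 415, 420 and 432 at day 3, without overlap in CPM. Under the scaling of the fit its change was 0.00 ± 0.09 (adjusted p = 1.00), with a 95% interval of -0.19 to 0.19. By day 10 Nanog was at 20.3, 16.9 and 23.2 CPM, a log2FC of -4.53 ± 0.10 from day 3.

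Sox2, the HMG-box partner of OCT4, fell earlier. It was at 212, 217 and 221 CPM at day 0, at 82.1, 80.6 and 78.7 at day 3 and at 24.9, 24.9 and 27.9 at day 10. Its 2 steps were alike in size, -1.52 ± 0.07 and -1.77 ± 0.07 on the log2 scale, which sets it apart in shape from Pou5f1 and Nanog in the plot of levels by library. Sox2 lies inside the long noncoding gene Sox2ot, which was between 0.104 and 3.82 CPM in all libraries. The annotated antisense genes that overlap Pou5f1, Sall4, Lin28a and Trim71 were at most 0.917 CPM in any library.

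Utf1, Dppa2, Dppa4 and Dppa5a fell at both steps and furthest overall. Dppa2 was at 144, 139 and 138 CPM at day 0, at 33.6, 40.5 and 38.5 at day 3 and at 1.16, 2.12 and 2.41 at day 10, which left 1.35% of its day 0 level. From day 0 to day 3 the log2FC was -1.70 ± 0.11 for Utf1, -2.00 ± 0.14 for Dppa2, -2.02 ± 0.10 for Dppa4 and -1.43 ± 0.20 for Dppa5a, and the libraries of the 2 days did not overlap for any of them. From day 3 to day 10 these 4 genes changed by -3.85, -4.43, -3.56 and -4.12. Dppa4 and Dppa2 are neighbours on chromosome 16, 9670 bases apart. Reads of Dppa5a, Dppa4 and Dppa2 are partly shared with near-identical copies: 38.6%, 31.3% and 29.1% of their 50-base windows occur in other annotated genes, so their counts are less certain than those of Sox2 and Utf1, where no window was shared. The counts given to the copies of Dppa2 were at most 0.885% of those of Dppa2 at days 0 and 3 but reached 10.0% at day 10, when Dppa2 itself was low.

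Sall4, Lin28a and Trim71 were retained, a grouping made after their values were seen. Lin28a was at 414, 422 and 427 CPM at day 0, at 576, 594 and 603 at day 3, where every library was above those of day 0, and at 232, 215 and 205 at day 10. Its early rise was 0.39 ± 0.06 on the log2 scale (edgeR, adjusted p = 3.92e-05) and its later fall -1.59 ± 0.06. Sall4 was at 373, 378 and 386 CPM at day 0, at 406, 443 and 435 at day 3 and at 146, 121 and 125 at day 10, and Trim71 was at 568, 565 and 527, then 366, 379 and 340, then 200, 145 and 140. At day 10 these 3 genes kept 29.2 to 51.6% of their day 0 CPM in wild type, against 1.35 to 12% for the other 7. The Quaking KO showed the same division, with 32.4 to 50.2% against 2.02 to 15.1%. These shares are of CPM without TMM: Lin28a in wild type kept 51.6%, beside a fitted fall of 2.29-fold.

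**Figure D2:**
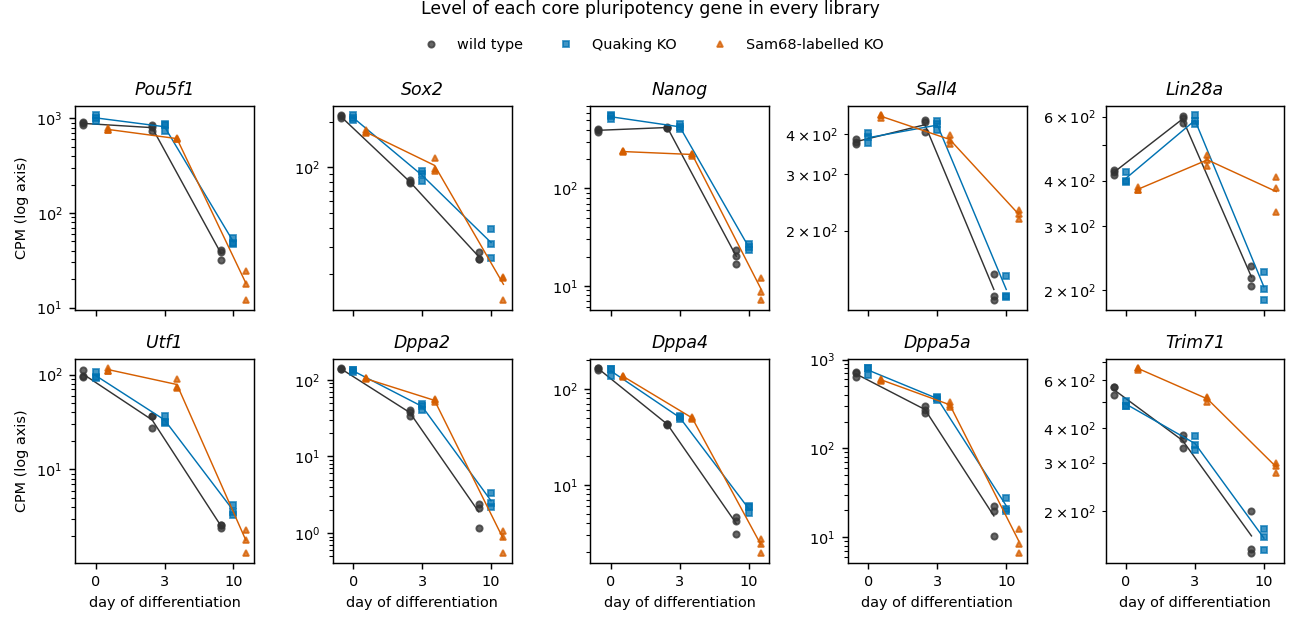
CPM of each gene in every library (points, 3 per group, log axis) by day, with lines joining the group means, for wild type (circles), the Quaking KO (squares) and the Sam68-labelled KO (triangles). Panels have their own scales: Dppa2 in wild type runs from 140 to 1.90 CPM in the mean, and Lin28a in the Sam68-labelled line stays between 373 and 456 CPM in the mean.

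The same steps were then followed in each KO line. In the Quaking KO 8 members fell from day 0 to day 3, Lin28a rose and Sall4 was not called (69.0% of all genes were called, 34.2% higher and 34.8% lower), with a median of -0.89 against 0.00 over all genes. All 10 fell from day 3 to day 10 (78.1% of all genes were called, 41.1% higher and 37.0% lower), with a median of -3.26. All 10 also fell over the whole course (83.5% called, 43.1% higher and 40.5% lower), with a median of -4.62. In the Sam68-labelled line 8 fell from day 0 to day 3, Lin28a rose and Nanog was not called (72.9% of all genes were called, 37.0% higher and 35.9% lower), with a median of -0.48. Among the 8 was Pou5f1, at -0.36 ± 0.14 (adjusted p = 0.0318), whose call was lost with DESeq2 (0.152) and when any 1 of the 6 libraries was left out (0.0513 to 0.0840). Nanog, at -0.14, was called without the filter on low counts (adjusted p = 0.000530) and on the 6 libraries alone (0.000638). All 10 fell from day 3 to day 10 (86.0% of all genes were called, 43.5% higher and 42.5% lower), with a median of -4.40. Over the whole course 9 fell (88.1% called, 45.0% higher and 43.1% lower), with a median of -4.99.

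The exception was Lin28a in the Sam68-labelled line. It was at 376, 377 and 383 CPM at day 0, at 440, 469 and 457 at day 3 and at 408, 382 and 328 at day 10. The libraries of days 0 and 10 overlapped, and the mean at day 10 was 98.5% of that at day 0. The fitted change from day 0 to day 10 was 0.03 ± 0.06 (edgeR, adjusted p = 0.680), with a 95% interval of -0.10 to 0.16. With protein-coding genes alone it was -0.19 (adjusted p = 0.00657), without Sam68-labelled day 10 replicate 3 it was 0.13 (0.00248) and without replicate 1 of that day -0.03 (0.606). In wild type the same change was -1.19 ± 0.06. Sall4 kept 49.4% and Trim71 43.8% of their day 0 CPM in this line, while the other 7 members were left with 0.798 to 9.90%.

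**Figure D3:**
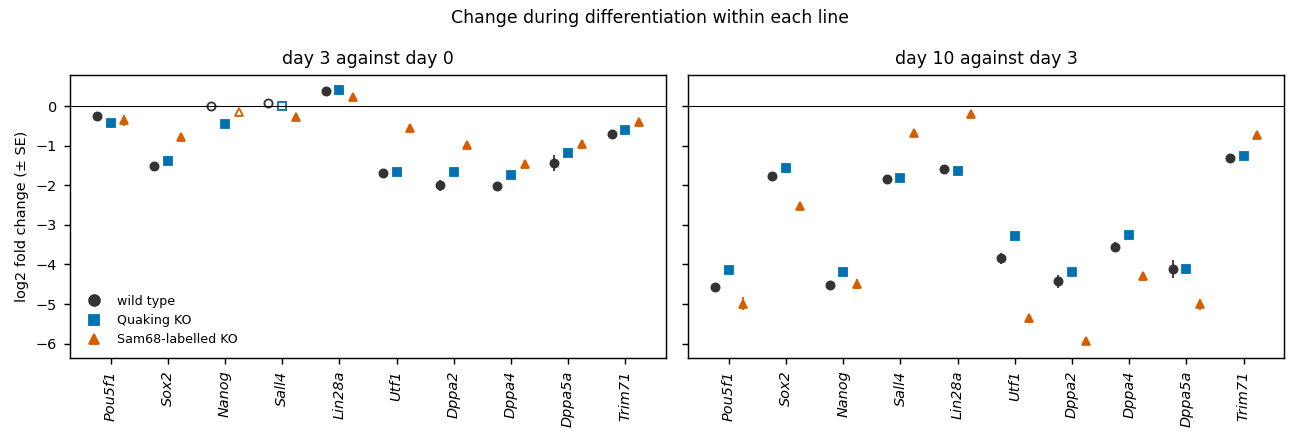
Log2 fold change of each gene from day 0 to day 3 (left) and from day 3 to day 10 (right) within each line, with standard errors; filled symbols passed the test and open symbols did not. In the right panel Sall4, Lin28a and Trim71 lie between -1.85 and -0.21 in the 3 lines, and Pou5f1 and Nanog lie between -4.99 and -4.14. Sox2 lies within the first range in wild type (-1.77) and the Quaking KO (-1.74 to -1.43 with a library left out). In the Sam68-labelled line it lies below that range (-2.59 to -2.37 with a library left out).

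The comparison of the Quaking KO with wild type asked which members depend on the line at each day. At day 0 Nanog, Pou5f1 and Dppa5a were higher, Trim71 was lower and 6 members were not called, where 39.7% of all genes were called, 19.4% higher and 20.3% lower. The median difference was -0.01 over the members and 0.00 over all genes. Nanog differed most, with 517, 548 and 567 CPM in the KO and 378, 408 and 399 in wild type, without overlap. Its log2FC was 0.49 ± 0.03 (edgeR, adjusted p = 1.51e-10). Pou5f1 was 0.22 ± 0.04 higher and Trim71 -0.15 ± 0.03 lower, each without overlap. Dppa5a was 0.17 ± 0.05 higher with overlapping libraries (665, 803 and 810 CPM against 641, 727 and 700), and its adjusted p of 0.00769 became 0.050 without Quaking KO day 0 replicate 3. Sall4, at 0.07 ± 0.03, was close to the threshold (adjusted p = 0.0526), and it was called with DESeq2 (0.0104) and without wild-type day 0 replicate 3 (0.0305).

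At day 3 Dppa5a, which was also higher at day 0, Dppa2 and Dppa4 were higher in the Quaking KO, none was lower and 7 were not called. Of all genes 7.01% were called, 3.08% higher and 3.93% lower. Dppa5a was at 351, 365 and 375 CPM against 250, 304 and 270, a log2FC of 0.44 ± 0.06 (edgeR, adjusted p = 0.000479). Dppa2 was 0.29 ± 0.06 and Dppa4 0.26 ± 0.04 higher, also without overlap, and the call of Dppa2 was lost without Quaking KO day 3 replicate 3 (adjusted p = 0.0546). These are the 3 members with the largest share of sequence in common with other genes. At day 3 the counts given to the copies were at most 0.780% of those of Dppa5a, 0.885% for Dppa2 and 0.939% for Dppa4. The part of shared sequence in these differences was not tested. Nanog, which differed at day 0, was now at 408, 456 and 423 CPM against 415, 420 and 432, a log2FC of 0.05 with a 95% interval of -0.04 to 0.15. Replicates with the same number deviated together in this comparison. Only 1 Quaking KO library, however, correlated best with the wild-type library of its own number, so the correlations leave the pairing uncertain. The library numbers of both lines run in sets by replicate number, and the main tests did not use the replicate number. With the number as a block in the 6 libraries compared Sox2 was called as well, at 0.17 (adjusted p = 0.0187, against 0.130 without it). The share of mt-Rnr2 was 10.96% in replicate 1 of the Quaking KO at day 3 and 5.64% in the other two, against 9.53, 6.54 and 5.82% in wild type. The part of this share in the results was not tested.

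The change of the difference between the days was tested directly, on 12 libraries. From day 0 to day 3 the Quaking KO difference of Nanog changed by -0.44 ± 0.06 (edgeR, adjusted p = 2.43e-05), that of Dppa2 by 0.36 ± 0.08 (0.00308) and that of Dppa4 by 0.31 ± 0.07 (0.00437), while 7 members were not called. Of all genes 15.9% were called in this test, 9.45% higher and 6.45% lower. With all 3 days of wild type and the Quaking KO in 1 fit of 18 libraries the calls of Dppa2 (0.248) and Dppa4 (0.158) were lost. With the replicate number as a block Dppa5a (0.27, adjusted p = 0.00529) and Pou5f1 (-0.16, 0.0314) were called as well. Dppa5a was also called without Quaking KO day 0 replicate 2 or 3, wild-type day 0 replicate 1 or wild-type day 3 replicate 2 (0.00744 to 0.0499), and Sox2 without replicate 1 of day 3 of the Quaking KO (0.0163) or of wild type (0.0432).

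At day 10 no member of the Quaking KO was called against wild type by edgeR, where 11.7% of all genes were called, 4.96% higher and 6.71% lower. At an unadjusted p under 0.05, 2 members passed, and DESeq2 called 2, Dppa4 (0.53, adjusted p = 0.0234) and Utf1 (0.55, 0.0261). Estimates for the 7 members with low levels were between 0.31 and 0.54, and those of Sall4, Lin28a and Trim71 were 0.01, -0.08 and -0.02. Pou5f1, at 54.3, 46.6 and 48.0 CPM against 39.0, 32.0 and 41.1, had a 95% interval of -0.02 to 0.86, and it was called in a fit of the 6 libraries alone (adjusted p = 0.0283). Libraries varied more at day 10, with a common biological coefficient of variation of 10.6% against 3.6% at day 0. No member was called for the change of the Quaking KO difference from day 3 to day 10 (3.58% of all genes were called, 2.03% higher and 1.55% lower). At an unadjusted p under 0.05, 3 passed there. Utf1 passed (0.65, adjusted p = 0.0425) when replicate 2 of wild type at day 3 was left out, and Pou5f1 (0.47, 0.0447) and Nanog (0.43, 0.0372) passed when replicate 3 at day 10 was.

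Expression of lineage markers in the Quaking KO is given beside these results. The summed CPM of 12 extraembryonic endoderm markers, all of them with counts, was 377 to 384 at day 0 against 401 to 455 in wild type, and 176 to 202 against 398 to 444 at day 3. That of 8 cardiac muscle markers was 271 to 594 against 1095 to 1148 at day 10. Extraembryonic endoderm markers summed to 1620 to 2115 against 2171 to 2635 at day 10. For 10 trophoblast markers the sums were 11.2 to 11.7 against 19.9 to 22.1 at day 0 and 94.5 to 104 against 82.7 to 86.6 at day 10. For 12 neural progenitor markers they were 40.2 to 42.0 against 50.4 to 50.7 at day 0 and 103 to 144 against 84.3 to 93.3 at day 10. The part of these cell types in the results was not tested.

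At day 0, 9 members of the Sam68-labelled line differed from wild type, with 7 lower and 2 higher, where 74.4% of all genes were called, 37.9% lower and 36.5% higher. The median was -0.34 against -0.01 over all genes. Nanog was again the furthest from wild type, in the opposite direction to the Quaking KO: 235, 243 and 240 CPM against 378, 408 and 399, a log2FC of -0.85 ± 0.03 (edgeR, adjusted p = 1.69e-14). Dppa2 was at -0.55, Sox2 at -0.46, Dppa4 at -0.39, Pou5f1 and Dppa5a at -0.34 and Lin28a at -0.28, each without overlap between the libraries. Sall4 and Trim71 were slightly higher, at 0.14 ± 0.03 and 0.13 ± 0.03. Utf1 did not pass, at 0.03 with a 95% interval of -0.09 to 0.14.

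At day 3 the line carried differences in both directions. Utf1, Dppa2, Trim71, Sox2 and Dppa4 were higher, Nanog, Pou5f1, Lin28a and Sall4 were lower, and Dppa5a was not called. Of all genes 73.1% were called, 36.0% higher and 37.1% lower, and the median was 0.11 over the members against -0.00. Utf1 was at 89.8, 74 and 72 CPM against 36.3, 27.4 and 36.3 in wild type, without overlap, a log2FC of 1.15 ± 0.11 (edgeR, adjusted p = 1.19e-07). Nanog was at 217, 223 and 228 CPM against 415, 420 and 432, a log2FC of -1.01 ± 0.04. Dppa2 was at 0.44, Trim71 at 0.41, Sox2 at 0.26, Sall4 at -0.24, Lin28a at -0.46 and Pou5f1 at -0.47. Dppa4, at 0.13 (adjusted p = 0.00772), was not called without the filter on low counts (0.140), and Dppa5a was called without wild-type day 3 replicate 2 (0.16, 0.0286). The share of mt-Rnr2 was 10.65 to 11.1% in the line at day 3, above the 3 wild-type libraries (5.82 to 9.53%). The part of this share in the results was not tested.

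At day 10 the 10 genes divided in the Sam68-labelled line as they had in their retention. The retained shares and this comparison use the same day 10 libraries, so it is not a separate observation of the grouping. Sall4, Lin28a and Trim71 were higher than in wild type, 6 of the other 7 were lower, and Utf1 was not called. Of all genes 50.6% were called, 22.8% higher and 27.8% lower, and the median was -0.60 against -0.04. Trim71 was at 300, 292 and 275 CPM against 200, 145 and 140, a log2FC of 0.91 ± 0.12 (edgeR, adjusted p = 8.85e-05). Sall4 was at 226, 232 and 217 CPM against 146, 121 and 125, a log2FC of 0.86 ± 0.08 (adjusted p = 8.38e-06). Lin28a was at 408, 382 and 328 CPM against 232, 215 and 205, a log2FC of 0.85 ± 0.10 (adjusted p = 3.01e-05). For these genes every library of the line was above every wild-type library.

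The lower members at day 10 had low levels in both lines. Nanog was at 8.55, 12.1 and 7.07 CPM against 20.3, 16.9 and 23.2, a log2FC of -1.04 ± 0.18 (edgeR, adjusted p = 0.000492), and Pou5f1 was at 17.9, 24.6 and 11.9 CPM against 39.0, 32.0 and 41.1, a log2FC of -0.96 ± 0.20 (0.00228). Dppa2 was at -1.11 ± 0.30 and Dppa4 at -0.67 ± 0.17. Sox2, at -0.54 ± 0.16, lost its call without Sam68-labelled day 10 replicate 2 (adjusted p = 0.0713) or wild-type day 10 replicate 3 (0.0594). Dppa5a, at -0.86 ± 0.28, had overlapping libraries, and its adjusted p of 0.0251 rose to between 0.0741 and 0.116 without Sam68-labelled day 10 replicate 2 or 3 or wild-type day 10 replicate 2 or 3. Utf1 was at -0.42 ± 0.18 (adjusted p = 0.0767), and without Sam68-labelled day 10 replicate 1 it was called at -0.61 (0.0185).

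**Figure D4:**
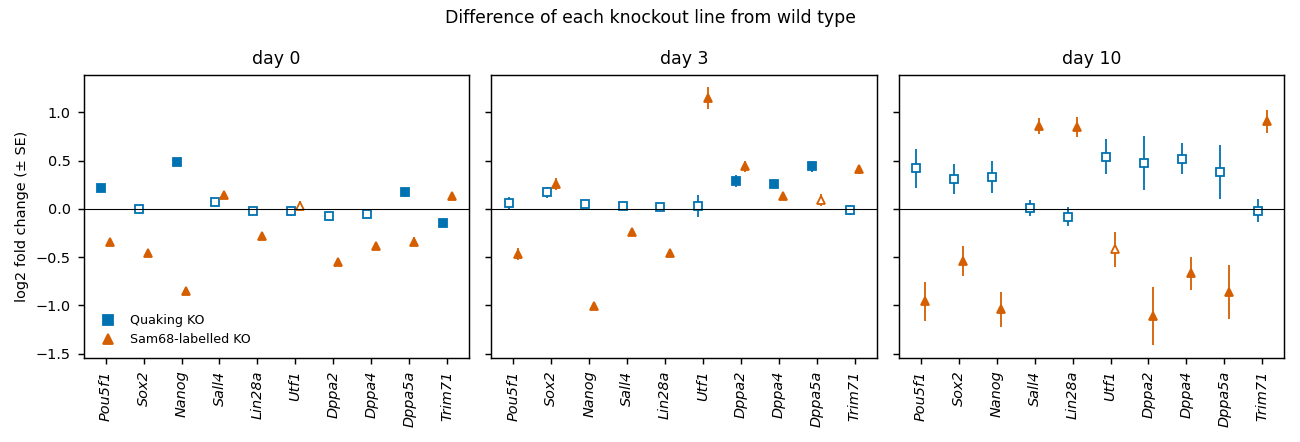
Log2 fold change of each gene in the Quaking KO (squares) and the Sam68-labelled KO (triangles) against wild type at days 0, 3 and 10, with standard errors; filled symbols passed the test and open symbols did not. Both lines are compared with the same wild-type libraries. Nanog lies at -0.85 to -1.04 in the Sam68-labelled line at the 3 days, and Sall4, Lin28a and Trim71 lie at 0.85 to 0.91 there at day 10.

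The change of the difference between days was tested directly here as well. From day 3 to day 10 the difference of the Sam68-labelled line changed by 1.40 ± 0.11 for Lin28a (edgeR, adjusted p = 1.96e-07), by 1.18 ± 0.10 for Sall4 (3.17e-07) and by 0.58 ± 0.15 for Trim71 (0.00385). It changed by -1.49 ± 0.22 for Utf1, -1.47 ± 0.29 for Dppa2, -0.87 ± 0.32 for Dppa5a, -0.72 ± 0.17 for Dppa4 and -0.72 ± 0.15 for Sox2. Nanog (0.05) and Pou5f1 (-0.41) were not called, and without Sam68-labelled day 10 replicate 2 Pou5f1 was called at -0.73 (adjusted p = 0.00466). Of all genes 54.2% were called in this test, 30.3% higher and 23.9% lower. The call of Dppa5a (adjusted p = 0.0326) was lost with DESeq2 (0.0702) and without any 1 of 5 libraries: Sam68-labelled day 10 replicates 2 and 3, wild-type day 10 replicates 2 and 3, and wild-type day 3 replicate 1 (0.0501 to 0.0845).

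From day 0 to day 3 the difference changed upward for 6 members and downward for 3, where 33.8% of all genes were called, 18% higher and 15.9% lower. The largest changes were 1.15 ± 0.12 for Utf1, 1.01 ± 0.07 for Dppa2 and 0.75 ± 0.07 for Sox2. Those of Dppa4, Dppa5a and Trim71 were 0.55, 0.45 and 0.30, and those of Sall4, Lin28a and Nanog were -0.36, -0.16 and -0.14. Pou5f1 was not called, but it passed when replicate 1 of day 3 (-0.17, adjusted p = 0.0124) or replicate 3 of day 0 (-0.16, 0.0435) of wild type was left out. In 1 fit of 18 libraries the calls of Dppa5a (adjusted p = 0.199), Lin28a (0.370) and Nanog (0.722) were lost. Nanog also lost its call without any 1 of 4 libraries: Sam68-labelled day 0 replicate 2, day 3 replicates 1 and 2, and wild-type day 0 replicate 1 (0.0523 to 0.0649).

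Markers of other cell types moved with the Sam68-labelled line. The summed CPM of the 12 extraembryonic endoderm markers was 1796 to 1871 at day 0 against 401 to 455 in wild type, 1312 to 1486 against 398 to 444 at day 3 and 3307 to 3668 against 2171 to 2635 at day 10. All 12 had counts in every group. At day 0 the defining factor Gata4 was at 72.3 ± 2.80 CPM against 13.3 ± 0.177 (SD, n = 3) and Gata6 at 35.2 ± 0.308 against 7.94 ± 0.361, while Afp was under 0.1 CPM in both. Markers of the primitive streak, 10 genes, summed to 125 to 180 CPM at day 3 against 644 to 961. At day 10 the 8 cardiac muscle markers summed to 2117 to 2259 CPM against 1095 to 1148, the 8 blood markers to 161 to 241 against 580 to 742 and the 8 fibroblast markers to 2762 to 4237 against 7033 to 9240. Germ cell markers, 12 genes, summed to 121 to 141 CPM against 92.9 to 110, with Nanos2 at 0. Of the 11 tested, however, 3 were higher and 6 lower (median log2FC -0.56), beside 22.8% and 27.8% of all genes. Neural progenitor markers, 12 genes that do not include Sox2, summed to 159 to 175 CPM against 147 to 157 at day 3. There 5 of 8 tested were higher and 1 lower, beside 36.0% and 37.1% of all genes. At day 10 they summed to 51.1 to 67.4 CPM against 84.3 to 93.3. There 5 of 11 were lower and none higher, beside 27.8% and 22.8% of all genes. Trophoblast markers, 10 genes, summed to 5.32 to 5.37 CPM against 13.8 to 22.8 at day 3. Of 6 tested, 1 was higher and 4 lower, beside 36.0% and 37.1% of all genes. Elf5, Tpbpa and Prl3d1 were at 0 in the line and under 0.1 CPM in wild type as well. The part of these cell types, and of the library batch, in the results was not tested.

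Other genes of the pluripotency network give the setting for the 10 members. Of 26 partners of the naive state and the wider network, all 26 fell from day 0 to day 10 in wild type, with a median log2FC of -4.17 against 0.01 over all genes tested (39.4% of which fell). Already from day 0 to day 3, 25 of the 26 fell (30.1% of all genes), with a median of -3.11 beside -1.07 for the 10 members. In the Quaking KO at day 0, 15 partners were higher and 5 lower (median 0.15), beside 19.4% and 20.3% of all genes. Among them were Tbx3 at 0.93 and Tfcp2l1 at 0.64, factors of the naive state, and Gbx2 at -0.47. At day 10 in the Sam68-labelled line 8 were higher and 10 lower (median -0.26 against -0.04), beside 22.8% and 27.8% of all genes. There Tfcp2l1 was 2.32 ± 0.11 and Klf4 1.74 ± 0.14 higher, and Eras (-1.33) and Gdf3 (-1.37), which follow members closely across libraries, were lower.

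Genes of the formative and primed state, 12 in number, moved opposite to most members at first: from day 0 to day 3 in wild type 11 rose and none fell, with a median of 2.77, beside 30.8% and 30.1% of all genes. At day 0 in the Quaking KO 10 of the 12 were lower (20.3% of all genes), among them the DNA methyltransferases Dnmt3b (-0.56) and Dnmt3a (-0.52). Of the 12, 7 were lower and 3 higher in the Sam68-labelled line at day 0 (median -0.43), beside 37.9% and 36.5% of all genes. In the Sam68-labelled line at day 3, where Utf1 was high, 6 were higher and 4 lower (36.0% and 37.1% of all genes), with Pou3f1 at 1.51 and Fgf5, a marker of the primed state, at -0.46.

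The genes around LIN28 and let-7, 17 tested, did not move as a block. From day 0 to day 10 in wild type 8 rose and 7 fell (median 0.20 against 0.01), beside 41.4% and 39.4% of all genes. Among them were Hmga2, a well-known let-7 target, at 4.68 ± 0.13, Arid3a at 2.34, Myc at -1.60 and Mycn at -1.16. At day 10 in the Sam68-labelled line, where Lin28a was higher, 4 were higher and 4 lower (median -0.01 against -0.04), beside 22.8% and 27.8% of all genes. Tut7, which adds uridines to let-7 precursors, was at 0.52 ± 0.06 and Arid3b at 0.44, while Hmga2 was at -1.0 ± 0.10 and Myc at -0.74. In the Quaking KO at day 10 none of the 17 was called by edgeR (median 0.07 against -0.02), where 11.7% of all genes were.

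Of 5 messages reported as targets of TRIM71, all 5 rose from day 0 to day 10 in wild type while Trim71 fell, with a median of 0.47 against 0.01 (41.4% of all genes rose). Mbnl1, a splicing regulator, was at 1.81 ± 0.07 and Cdkn1a, which encodes a cell cycle inhibitor, at 1.43 ± 0.09. The targets did not all rise from day 0 to day 3, when Trim71 also fell in each line. In wild type 2 rose and 2 fell (median -0.13), beside 30.8% and 30.1% of all genes. In the Quaking KO 2 rose and 3 fell (34.2% and 34.8% of all genes). In the Sam68-labelled line none rose and 3 fell (37.0% and 35.9% of all genes). In the Sam68-labelled line at day 10, where Trim71 was higher, Cdkn1a (0.71) and Egr1 (0.44) were higher and Mbnl1 (-0.71) was lower. The other 2 were not called, and the median was -0.04, as over all genes, of which 22.8% were higher and 27.8% lower. Family relatives of the members gave 3 rises and 9 falls among 14 from day 0 to day 10 in wild type (median -0.81), a total near the 80.8% of all genes called (41.4% higher and 39.4% lower). Sall2, a relative of Sall4, rose by 2.81 and Sall1 changed by -2.67.

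Some genes followed single members closely across the 27 libraries. By Pearson correlation of log2(CPM + 1), among 12891 genes, the nearest to Pou5f1 were Tdgf1 (r = 0.997) and Eras (0.996), and the nearest to Nanog were Eras (0.994) and Fbxo5 (0.993). Dppa2 was nearest to Gdf3 (0.997), Dppa4 to Zfp980 (0.997), Dppa5a to Gdf3 (0.993) and Utf1 to Foxd3 (0.993), and Sox2 to Lmnb1 (0.988). The retained members had other nearest genes: Kdm4c for Sall4 (0.980), Chmp4c for Lin28a (0.963) and Enc1 for Trim71 (0.988). These values are descriptions. The libraries share 3 lines and 3 days, and correlations within a line or a day were not computed.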

How the data were processed

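The authors deposited raw read counts, 1 file per library, without normalisation, for total RNA depleted of ribosomal RNA (stranded kit, paired reads of 125 bases, per the labels' protocols). STAR 2.5.3a, bcl2fastq 2.17.1.14 and GRCm38 (mm10) are listed in the submitters' processing notes. No counting program, strand setting or annotation is given in the sources used here, so reads of a gene and of an overlapping antisense gene may not be told apart. GENCODE M21 matched 51633 of 51826 identifiers (99.6%). The members and gene lists were chosen with earlier results of these data known.

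Counts were filtered with filterByExpr (minimum count 10, minimum total 15), scaled by TMM and tested with edgeR 4.0.16 (quasi-likelihood, Benjamini-Hochberg over all genes, threshold 0.05; limma 3.58.1, R 4.3.3). Each line's 9 libraries were fitted together for days, each day's 9 for lines, and 12 for each interaction. The scripts were tested on simulated counts. Alternatives were DESeq2 1.42.0, RLE scaling, no filter, protein-coding genes alone, other sets of libraries, the replicate number as a block and leaving out each library. The block on the 6 libraries compared was added after seeing the data. For pairing, deviations of log2(CPM + 1) from the group mean were correlated between libraries. Replicate numbers were taken as a sign of pairing where same-numbered libraries correlated above 0.1 in all 3 pairs. This held for the Quaking KO at day 3 against day 0 (0.27, 0.21, 0.12) and against wild type at day 3 (0.59, 0.25, 0.16). Of the Quaking KO libraries of day 3, 2 correlated best with the day 0 library of their own number. Only 1 did so with the wild-type library of its own number, so the correlations leave pairing by number uncertain. Library numbers of wild type and the Quaking KO run in sets by replicate number. They are 25493 to 25498 for replicate 1, 25499 to 25504 for replicate 2 and 25505 to 25510 for replicate 3. The main fits held no replicate block. RPKM used the union of annotated exons. Intervals (95%) use the residual degrees of freedom of the edgeR test. They cover the spread between these libraries, and p-values measure only that spread.

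Named besides the members are up to 2 higher and 2 lower called genes with the smallest p from each list and comparison, of which some are left out for length, the 2 protein-coding genes most like each member, overlapping genes and copies, Qk and Khdrbs1. The markers Gata6 at day 0 in the Sam68-labelled line and Afp are named outside that rule, after their values were seen.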

Additional observations from a re-analysis of the deposited data

Results flagged for a closer look

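For 20 results the difference of a KO line from wild type itself changed between 2 days, by the interaction test of edgeR. Of all genes, 15.9% were called in this test for the Quaking KO from day 0 to day 3 and 3.58% from day 3 to day 10. For the Sam68-labelled line 33.8% and 54.2% were called. The results in the Quaking KO from day 0 to day 3 were Nanog (-0.44), Dppa2 (0.36) and Dppa4 (0.31), all as log2 values. In the Sam68-labelled line from day 0 to day 3 they were Utf1 (1.15), Dppa2 (1.01), Sox2 (0.75), Dppa4 (0.55), Dppa5a (0.45) and Trim71 (0.30), which moved up, and Sall4 (-0.36), Lin28a (-0.16) and Nanog (-0.14), which moved down. In the same line from day 3 to day 10 Lin28a (1.40), Sall4 (1.18) and Trim71 (0.58) moved up, and Utf1 (-1.49), Dppa2 (-1.47), Dppa5a (-0.87), Sox2 (-0.72) and Dppa4 (-0.72) moved down. Utf1, Dppa2, Dppa4, Dppa5a and Sox2 thus moved up in the first interval and down in the second, and Sall4 and Lin28a did the opposite. The 2 tests share the libraries of day 3, which enter them with opposite sign, so a deviation at day 3 alone gives such opposite moves. As given above, some of these calls were lost under alternatives. They are Dppa2 and Dppa4 in the Quaking KO, and in the Sam68-labelled line Dppa5a in both intervals and Lin28a and Nanog in the first.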

How the results depend on the processing

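Of 2670 values of members under alternatives, 2518 kept their direction and their side of the threshold, 70 changed sign, 47 gained and 35 lost a call. Library sizes scaled by TMM moved 41 of the mean CPM levels by their SD or more and left 49 within it. The longest annotated transcript moved 33 of the mean RPKM levels and left 57. These choices bear on the levels, and the first also on the shares kept of the day 0 level, but not on the tests. The number of members called for the Quaking KO against wild type at day 10 was 0, and 2 without a filter, with DESeq2, on the 6 libraries alone and on these with the replicate block. For the change of the Quaking KO difference from day 0 to day 3 it was 3, and 5 without a filter, 5 with the replicate block and 1 on 18 libraries. For the change from day 3 to day 10 it was 0, and 2 without a filter, 1 with the replicate block, 1 on 18 libraries and 0 to 2 with a library left out. The replicate block changed the count in no other comparison by over 1.5 times. With it Utf1 was called in the Sam68-labelled line against wild type at day 10 (-0.45, adjusted p = 0.0490), and on 6 libraries Dppa5a was not (-0.85, 0.0577). The causes of these shifts were not tested.

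Some values changed sign under an alternative. Nanog in wild type from day 0 to day 3 was -0.01 with RLE scaling and with DESeq2, -0.04 with protein-coding genes alone and -0.00 on 6 libraries, with or without the replicate block. Lin28a in the Sam68-labelled line from day 0 to day 10 was -0.19 with protein-coding genes alone, a called fall (adjusted p = 0.00657), and -0.01 with the replicate block on 6 libraries. Sall4 in the Quaking KO from day 0 to day 3 was -0.00, and against wild type at day 10 -0.00, with protein-coding genes alone. Sox2 in the Quaking KO at day 0 was 0.01 with RLE scaling and DESeq2 and 0.00 without a filter and with protein-coding genes alone. Trim71 in the Quaking KO at day 10 was 0.01 with the replicate block on 6 libraries. For the change of the Quaking KO difference from day 3 to day 10, Sall4 was 0.01 with RLE scaling, DESeq2 and 18 libraries and 0.00 without a filter, and Trim71 was -0.01 with protein-coding genes alone. Nanog for the change of the Sam68-labelled difference from day 3 to day 10 was -0.13 with protein-coding genes alone.

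With a library left out, the lowest and highest values of members that changed sign were as follows. In the Quaking KO against wild type at day 0 Sox2 ran from -0.02 to 0.03, Dppa4 from -0.08 to 0.01 and Utf1 from -0.08 to 0.06. At day 3 Lin28a ran from -0.01 to 0.04, Sall4 from -0.01 to 0.05, Trim71 from -0.06 to 0.03 and Utf1 from -0.10 to 0.10. At day 10 Sall4 ran from -0.06 to 0.09 and Trim71 from -0.11 to 0.16. For the change of that difference Utf1 ran from -0.07 to 0.13 in the first interval, and Dppa2 from -0.05 to 0.43, Dppa5a from -0.32 to 0.20, Sall4 from -0.06 to 0.07 and Trim71 from -0.06 to 0.18 in the second. In the Sam68-labelled line Utf1 at day 0 ran from -0.05 to 0.10, Lin28a from day 0 to day 10 from -0.03 to 0.13, and Nanog for the change from day 3 to day 10 from -0.24 to 0.18. Nanog in wild type from day 0 to day 3 ran from -0.02 to 0.01.

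Over all genes, the Quaking KO against wild type at day 3 gave 1381 calls, and 2433 with the replicate block on 6 libraries, 749 without wild-type day 3 replicate 2 and 801 without replicate 3. At day 10 it gave 2392, and 1531 with that block and 1399 without Quaking KO day 10 replicate 2. The change from day 0 to day 3 gave 3172, and 1801 on 18 libraries, and that from day 3 to day 10 gave 753, and 1338 without a filter, 1214 with DESeq2, 1430 on 18 libraries and 370 to 464 for 5 of the 12 libraries left out. Depth limits no member at days 0 and 3. At day 10 Dppa2, at 0.544 to 3.31 CPM, is the member closest to its counting error.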
